A study of Homo sapiens with 24 samples.

Results

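The HOX transcripts were examined in 6 lists of N6-methyladenosine (m6A) peaks, and 97 of the 228472 peaks named a gene of the 4 HOX clusters. A peak was taken when the authors' gene field held any of the 39 protein-coding genes of the HOXA, HOXB, HOXC and HOXD clusters. The hPSC list gave 2 such peaks, DE 2, PP 30, hILO 4, WT PP 34 and A5-KO PP 25. The 3 lists of pancreatic progenitors together held 89 of them. At p below 1e-05, the limit that the study's methods name, the counts were 1, 1, 18, 4, 12 and 12 in the same order, so that PP and not WT PP then held the most.

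m6A-seq sequences RNA fragments pulled down with an m6A antibody (IP) beside the fragments before pull-down (input), and a peak is a stretch where IP exceeds input. The cells came from MEL1, a human embryonic stem cell line grown on CF1 feeder cells, which by the study's methods was MEL1 INS GFP/W, with a GFP reporter at 1 copy of the insulin gene. There were 2 libraries of IP and 2 of input per population, 24 in all. The undifferentiated cells (hPSC), the definitive endoderm made from them (DE), their pancreatic progenitors (PP) and the islet-like organoids (hILO) formed batch 1, made from mRNA with a SYSY antibody and Illumina library construction. WT PP and A5-KO PP formed batch 2, made from total RNA with a Millipore antibody, a SMARTer Stranded kit and input depleted of rRNA. A5-KO PP lacked ALKBH5, an enzyme that removes m6A from RNA, after CRISPR-Cpf1 editing, and WT PP were its unedited control. By the labels the progenitors passed through the same media, which included activin A, KGF and retinoic acid, and hILO were aggregates of these cells carried on in suspension. The files held 1 list per population with read counts pooled over libraries, which leaves no replicate spread to set a difference against, and none below was tested. Errors are counting errors of the log2 ratio, and ranges in parentheses after a share are Wilson intervals at 95%. Both cover counting only.

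HOX genes encode homeodomain transcription factors that give cells a position along the head-to-tail axis. The genes of a cluster lie in the order in which they are used, with paralogs of low number active early and toward the head and paralogs of high number late and toward the tail, and retinoic acid is a classical inducer of the low-numbered end. m6A is placed on mRNA mostly within the DRACH consensus (any base but C, then a purine, A, C and any base but G), of which GGAC is the common core, and it is known for marking transcripts of developmental regulators for turnover.

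GGAC occurred at 62 positions inside HOX peaks, 55 of them within a DRACH site. No position lay in peaks of 5 or 6 lists, 2 lay in peaks of 4 lists and 11 in peaks of 3. The recurrent positions within DRACH are given first, since they mark the stretches that were found again across populations and batches. They are read 5′ to 3′ on the transcript strand from GRCh38, the reference genome and not the cells' own sequence, with GGAC in capitals at the centre of 25 bases. The first 2, in the 3′ end of HOXB2, lay in peaks of DE, PP, WT PP and A5-KO PP. The other 9 lay in peaks of PP, WT PP and A5-KO PP.
HOXB2, chr17:48542772-48542796, minus strand: ataactagagGGACctattttcctc
HOXB2, chr17:48542796-48542820, minus strand: aactctagggGGACtttcttaaaaa
HOXB3, chr17:48549940-48549964, minus strand: accaaccaacGGACttaccttacat
HOXB3, chr17:48550421-48550445, minus strand: ccagcaccacGGACcctgcgaaccc
HOXB3, chr17:48550464-48550488, minus strand: ccgggaacctGGACtacaacggggc
HOXA2, chr7:27101189-27101213, minus strand: aaagccttgaGGACtccgagaaagt
HOXA3, chr7:27107967-27107991, minus strand: ccacctacacGGACcttaccggcca
HOXA3, chr7:27108166-27108190, minus strand: ggcagctatgGGACcccacacatac
HOXA4, chr7:27128745-27128769, minus strand: tagacattgtGGACctcacaagatt
HOXA4, chr7:27128875-27128899, minus strand: tgctgagtggGGACatacacttgca
HOXA4, chr7:27128895-27128919, minus strand: tcagctagctGGACagcccatgctg

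Another 4 sites are given because the peaks around them are described in full below. The HOXC4 site lay in peaks of WT PP and A5-KO PP, the HOXB7 site in the 5UTR peaks of hILO and A5-KO PP, and the HOXB13 site in the hILO peak only. The last site overlapped the edge of the PP peak with the highest enrichment of its HOX peaks, which could not be placed on 1 gene.
HOXC4, chr12:54055177-54055201, plus strand: aacgggcagaGGACattaccaggtt
HOXB7, chr17:48610986-48611010, minus strand: gtgtaaatctGGACtctaattctgt
HOXB13, chr17:48726691-48726715, minus strand: ctggggccaaGGACtctgctgagag
HOXB3, HOXB4 or HOXB6, chr17:48573989-48574013, minus strand: aaatctccttGGACcggctgttggg

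To ask which HOX genes carried a peak in each population, the genes were counted first as the gene field named them. In hPSC 2 of 39 HOX genes were named (5.13%, interval 1.42% to 16.9%), where 60.2% of all protein-coding genes had a peak. In DE 4 were named (10.3%, 4.06% to 23.6%) against 57.0% of all genes, in PP 13 (33.3%, 20.6% to 49.0%) against 52.2%, and in hILO 3 (7.69%, 2.65% to 20.3%) against 57.7%. WT PP named 17 (43.6%, 29.3% to 59.0%) against 62.8% and A5-KO PP 15 (38.5%, 24.9% to 54.1%) against 69.7%. HOX genes thus had a peak less often than the average gene in each of the 6 lists, by the least in PP and WT PP. The files hold no expression of genes without peaks, so an unexpressed gene and an unmethylated transcript cannot be told apart.

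Because annotated HOX transcripts overlap, 52 of the 97 peaks named several genes. By the exons of the canonical isoform, the longest coding isoform or a single named HOX gene, 94 peaks were placed on 1 gene and 3 were not. Placed this way, the lists held 2, 2, 13, 3, 15 and 12 HOX genes in the order hPSC, DE, PP, hILO, WT PP and A5-KO PP, and 20 genes in any list. HOXC9 and HOXC10 were named but held no placed peak. HOXA6, HOXA9, HOXA10, HOXA11, HOXB5, HOXC11, HOXC12, HOXC13 and all 9 HOXD genes were named in no list.

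**Figure D1:**
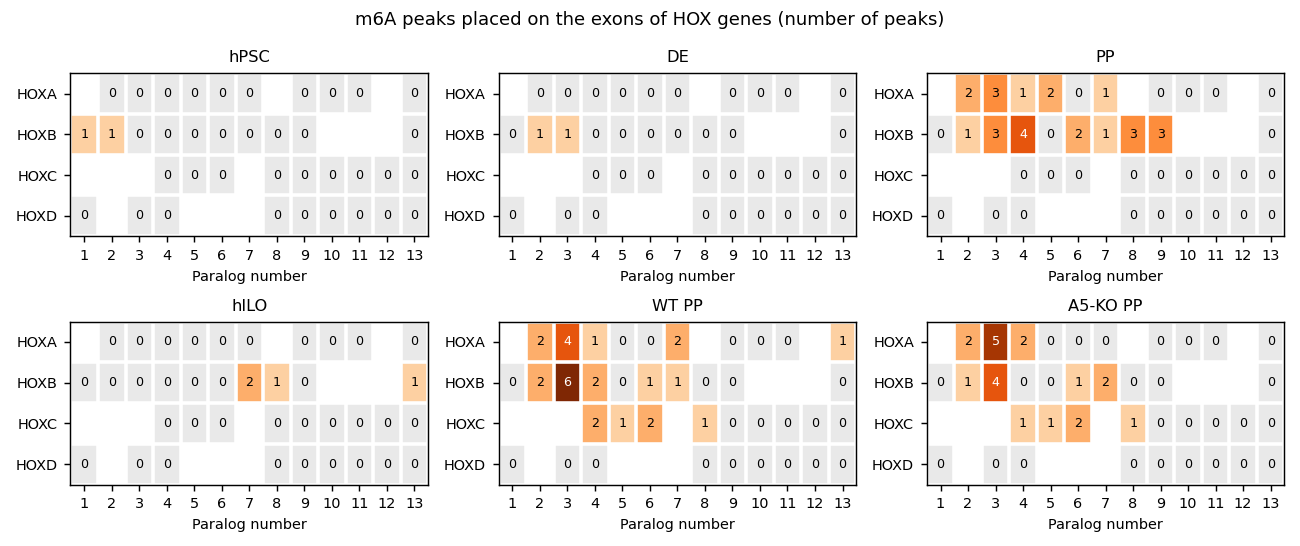
Number of m6A peaks placed on the exons of HOX genes, 1 panel per population, with the cluster in rows and the paralog number in columns. White cells have no gene or are not shown, and counts run from 0 to 6; the HOXC row is filled in WT PP and A5-KO PP alone, the HOXD row in no panel, and hILO holds peaks only on HOXB7, HOXB8 and HOXB13.

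The peaks fell unevenly along the clusters. Of the 8 genes of paralog groups 1 to 3, 6 carried a placed peak in some list, with 49 peaks. Groups 4 to 8 had 11 of 15 genes and 40 peaks, whereas groups 9 to 13 had 3 of 16 genes and 5 peaks. Of 20046 protein-coding genes, 16403 had a peak in some list, so the low and middle groups did not stand above genes at large. Peaks are counted per list, and a stretch shared by several lists is counted in each. In hPSC and DE the placed peaks lay on groups 1 to 3, with 2 peaks each. In PP the groups held 11, 14 and 3 peaks from the low to the high numbers. WT PP had 19, 13 and 1, and A5-KO PP had 15, 10 and 0. The hILO list, with 4 peaks, had 0, 3 and 1. By cluster, HOXA had 38 peaks, HOXB 47, HOXC 12 and HOXD 0.

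In hPSC the HOX signal was limited to 2 genes of the HOXB cluster. HOXB1, a hindbrain gene that responds to retinoic acid, had 14 input and 131 IP reads at a log2 enrichment of 1.43 (counting error 0.399) in a 75 nt peak at chr17:48529526-48529600, 13 nt upstream of the stop codon. HOXB2, its neighbour, had 96 input and 895 IP reads at 1.67 (0.155), the highest enrichment and the most input reads of the hPSC HOX peaks. This peak at chr17:48543742-48543892 covered only 25 nt of exon, the shortest step of the peak caller. Neither peak was found in another list.

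In DE, HOXB2 and HOXB3 carried 1 peak each. The HOXB2 peak in the 3UTR, chr17:48542767-48542941, had 172 input and 447 IP reads and a log2 enrichment of 2.60 (0.129), higher than 91.5% of all DE peaks. HOXB3 had 7 input and 58 IP reads and a value of 2.95 (0.560) at chr17:48550170-48550244, so its enrichment rested on few reads. Both stretches were found again in PP, WT PP and A5-KO PP, and they were the earliest HOX peaks of the series that recurred. At the HOXB2 stretch, PP had 40 input and 139 IP reads at 1.88 (0.258), and A5-KO PP 9 and 123 at 6.69 (0.486). WT PP had 0 and 78 there, and with no input read its deposited value of 10.79 is undetermined.

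In PP, the genes with peaks included HOXA2 to HOXA5, HOXA7, HOXB2 to HOXB4 and HOXB6 to HOXB9. HOXB6, a gene of the middle of the cluster, had the most input reads, 1815 with 11388 IP reads, in a 3UTR peak at chr17:48595876-48596125 with a log2 enrichment of 1.93 (0.0365). The highest enrichment, 3.04 (0.0770) with 399 input and 2871 IP reads, belonged to chr17:48573998-48574097, which named HOXB3, HOXB4 and HOXB6 and lay on the coding isoform of none of them. It stood above 96.4% of all PP peaks.

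Within the PP list the input reads in peaks, per kb of peak and per 1000000 input reads in all peaks, gave a measure of how much RNA of a HOX gene was sampled there. HOXB6 had 841, HOXA5, known from lung and neck patterning, 279, HOXB4 167, HOXB9 120 and HOXA3 103. HOXB3 and HOXB8, at 59.6 and 59.5, did not differ by more than counting error. HOXA2 had 35.1, and HOXA7, HOXB2, HOXB7 and HOXA4 followed between 24.2 and 17.2, from 38 to 76 reads each.

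**Figure D2:**
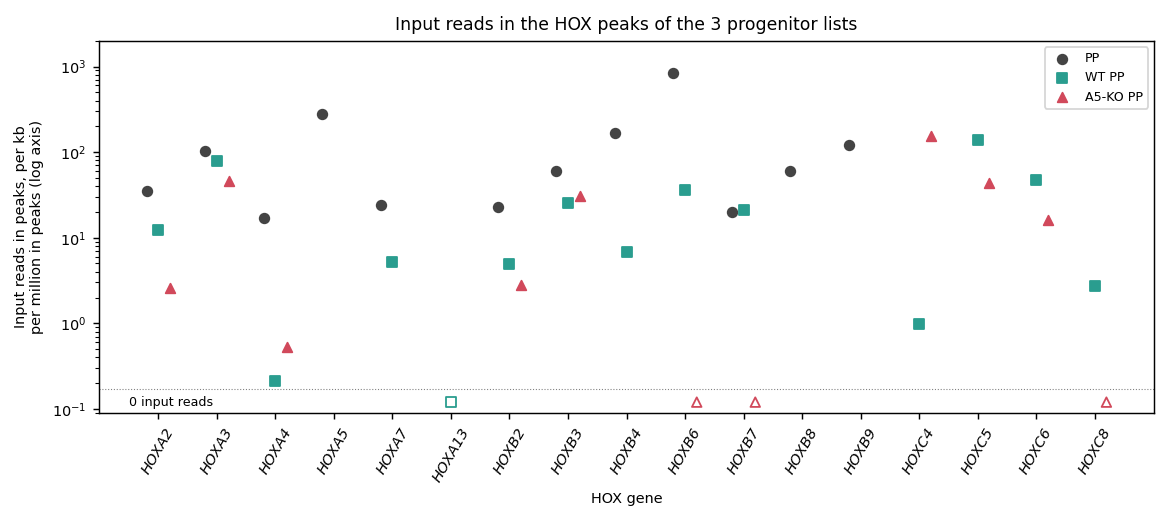
Input reads inside the peaks of HOX genes, per kb of peak and per 1000000 input reads in all peaks of the list, on a log axis, for PP, WT PP and A5-KO PP (no replicates, so no error bars; open symbols under the dotted line had 0 input reads). HOXB6 led in PP with 841, HOXC5 in WT PP with 139 and HOXC4 in A5-KO PP with 155.

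In hILO the HOX peaks were on HOXB7, HOXB8 and HOXB13. HOXB7 had the most input reads, as counted, of any HOX peak in the 6 lists, 3137, with 5491 IP reads. This peak lay in the 3UTR at chr17:48607707-48607806, at a low log2 enrichment of 1.13 (0.0323). The lists differed in depth, with 28463998 input reads over all peaks in hILO and 6987612 in PP. On the scale of input given for PP above, HOXB7 had 666 in hILO, below the 841 of HOXB6 in PP. A second HOXB7 peak, in the 5UTR at chr17:48610932-48611006, had 180 and 692 reads at 1.93 (0.121). HOXB8 had 15 and 101 reads at 2.43 (0.393), the highest HOX value in hILO. HOXB13, the last gene of its cluster and known from prostate and hindgut, had 926 and 2551 reads at 1.49 (0.0553) in a 300 nt peak at chr17:48726463-48726762 in the 3UTR. It had no peak in the other 5 lists. PP, the stage before, held peaks on HOXB7 and HOXB8 and not on HOXB13.

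To ask whether HOX peaks were carried over from the stage before, each peak was compared by whether more than 50% of its exonic bases lay in a peak of that stage. In DE 0 of 2 HOX peaks did, against 64.7% of all DE peaks. In PP 1 of 30 did (3.33%, 0.591% to 16.7%), the HOXB2 peak in the 3UTR, against 57.0% of all PP peaks. In hILO 2 of 4 did (50.0%, 15.0% to 85.0%), against 45.6%. DE held only 2 HOX peaks against the 30 of PP, so few could have been carried over, and the share in PP says little beyond these counts. Merging overlapping peaks gave 50 HOX stretches, of which 28 occurred in 1 list, 13 in 2, 6 in 3 and 3 in 4. The latter 3 were the HOXB2 and HOXB3 stretches of DE and the HOXB7 stretch around the stop codon, shared by PP, hILO, WT PP and A5-KO PP. None occurred in all 4 stages.

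The progenitors of both batches shared part of the pattern. Of the 30 HOX peaks of PP, 15 lay in WT PP peaks (50.0%, all peaks 57.9%). In turn, 10 of the 34 WT PP peaks lay in PP peaks (29.4%, all peaks 22.4%). All 4 HOXB4 peaks of PP lay inside a single WT PP peak of 2591 nt, with 16 input and 64 IP reads. Its exomePeak2 p of 0.00434 misses the limit of 1e-05. The share without this wide peak was not computed. HOXA2 to HOXA4, HOXA7, HOXB2 to HOXB4, HOXB6 and HOXB7 were among the genes with placed peaks in both. HOXA5, HOXB8 and HOXB9 had them in PP and in neither list of batch 2. All 12 peaks of the HOXC cluster came from batch 2, 7 from WT PP and 5 from A5-KO PP, and PP had 0 of 30. These counts use the lists as deposited, of which p below 1e-05 left 18 HOX peaks in PP and 12 in WT PP. Batch, RNA fraction, antibody and library preparation changed together between PP and WT PP, so their parts in this difference cannot be told apart.

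In WT PP, HOXA3, a gene of the pharyngeal arches and their endoderm, had most input reads, 1200 with 3227 IP reads at a log2 enrichment of 3.36 (0.0488), in a CDS peak at chr7:27110153-27110502. Its peak at the 3′ end of the CDS, chr7:27107759-27108433, had 775 and 7247 reads at 4.81 (0.0545). Among HOX peaks with at least 10 input reads the highest value was 5.09 (0.0992), for HOXB3 across its stop codon at chr17:48549870-48550594, with 234 and 2178 reads. On this scale, HOXC5 led with 139, followed by HOXA3 with 79.5 and HOXC6 with 46.7. HOXB6 had 35.7 there, and HOXC8 2.70. HOXA13, a gene of limb and hindgut, had a WT PP peak with 0 input and 47 IP reads. A count of 0 allows up to 3 reads.

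The enrichment of HOX peaks is set beside all peaks of the same list, since the lists were scaled separately. The median was 1.46 in PP against 1.64 for all peaks, 3.11 in WT PP against 3.65 and 4.37 in A5-KO PP against 4.31. The lists with 2 to 4 HOX peaks had medians of 1.55 in hPSC (all peaks 1.74), 2.77 in DE (1.72) and 1.71 in hILO (1.53), and both peaks of DE lay above its median. In batch 2 the range was wide, from 0.68 to 10.79 in WT PP and from 0.81 to 11.04 in A5-KO PP. The highest value of each of these lists went with missing input, and so did the lowest of A5-KO PP. The lowest of WT PP, on HOXB7, had 30 input reads. Of the HOX peaks, 4 of 34 in WT PP and 8 of 25 in A5-KO PP (32.0%, all peaks 24.6%) had no input read, and of these 12, 4 had a deposited value below 1 and 8 a value above 8, at 27 to 94 IP reads. Their enrichment was not interpreted. The median HOX peak of WT PP had 44.5 input reads (all peaks 80.0) and that of A5-KO PP 7.00 (33.0).

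To ask what loss of ALKBH5 changed at HOX transcripts, the peaks of A5-KO PP were paired with those of WT PP, within batch 2. ALKBH5 itself had 4 peaks in WT PP, with 289 input and 836 IP reads. In A5-KO PP its 5 peaks held 1 input read and 592 IP reads, so the input count followed the labels. The IP count did not, since per 1000000 IP reads in all peaks it was 13.9 for WT PP and 15.3 for A5-KO PP. Of the 25 HOX peaks of A5-KO PP, 17 lay in WT PP peaks (68.0%, all peaks 46.8%). Over these 17 pairs the log2 enrichment differed by a median of -0.33 (A5-KO PP minus WT PP, all shared pairs 0.24). It was higher by at least 1 in 7 pairs, 41.2% where 38.0% of all shared pairs were, and lower by at least 1 in 6, 35.3% against 28.9%. HOX peaks as a group thus moved both ways, at shares near those of all peaks. Both lists were scaled separately, so these differences hold any difference between the offsets too. With a single offset per list in place of the authors' estimate the median was 0.54.

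Most of the large differences had few input reads. When both lists had to hold at least 10 input reads, 8 pairs remained, of which 1 was higher by at least 1 (12.5%, all such pairs 27.6%) and 3 lower (37.5%, all 25.1%), with a median of -0.47. With at least 50 input reads 4 pairs remained, on HOXA3 and HOXB3, at a median of -0.81. The highest 3 values of all 17 pairs came from A5-KO PP peaks without any input read.

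**Figure D3:**
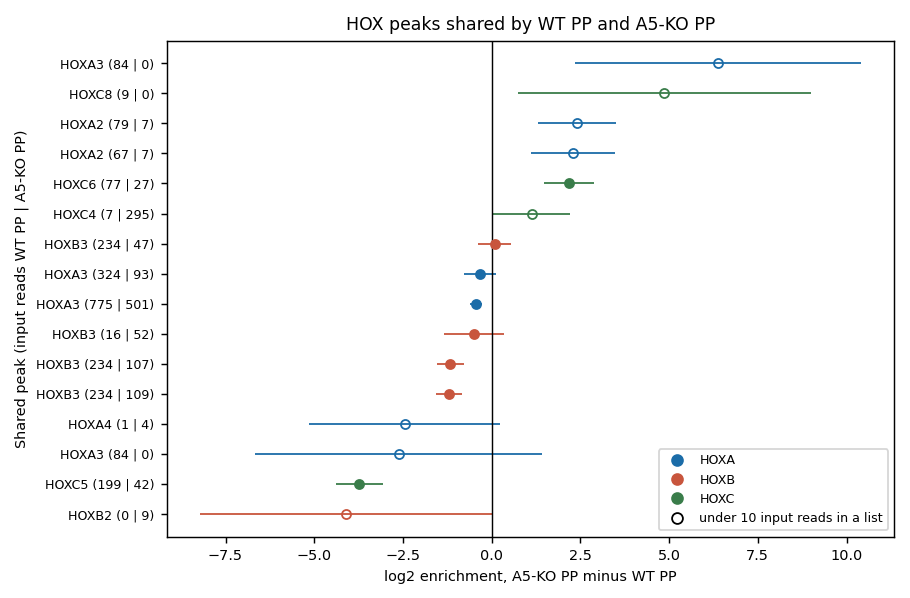
Difference in log2 enrichment (A5-KO PP minus WT PP) at 16 of the 17 shared HOX peaks, with bars of 95% counting error, and the input reads of WT PP and A5-KO PP beside each gene name (open symbols had under 10 input reads in either list). Among the filled symbols HOXC6 is highest at 2.17 and HOXC5 lowest at -3.73.

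The widest differences among well-covered pairs lay in the HOXC cluster, between neighbouring genes and in opposite directions. At HOXC5, in the homeobox (chr12:54034288-54034362), WT PP had 199 input and 1336 IP reads at 4.83. A5-KO PP had 42 and 39 there at 1.11, a difference of -3.73 (counting error 0.337). The exomePeak2 p was 2.54e-39 in WT PP and 0.0366 (adjusted 0.0383) in A5-KO PP. The A5-KO PP side was thus barely a peak, and it misses the p limit of the study's methods. At the HOXC6 5UTR (chr12:54028452-54028526), WT PP had 77 and 143 reads at 2.56, and A5-KO PP 27 and 148 at 4.74, a difference of 2.17 (0.362). In reads as counted, both IP and input were lower at HOXC5 in A5-KO PP, IP by far more, while at HOXC6 the IP reads were alike and the input was lower. Over all peaks, WT PP had 59982995 IP reads and A5-KO PP 38575826. The only other pair above 0 among the 8 was HOXB3 at chr17:48550245-48550544, at 0.09 (0.237).

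HOXB3 gave the next 2 falls, both inside the single wide WT PP peak that ran across its stop codon with 234 input and 2178 IP reads at 5.09. A5-KO PP had 107 and 254 reads at 3.92 for chr17:48549870-48550094 (-1.17, 0.193) and 109 and 346 at 3.89 for chr17:48550170-48550219 (-1.21, 0.187). The pair at 0.09 is another piece of the same WT PP peak, chr17:48550245-48550544, with 47 input and 891 IP reads at 5.18, and it is the one that spans the stop codon. Both falls thus set a piece of the 3UTR against the wide peak as a whole, and the 3 pairs are not independent of each other. The HOXA3 peak with most reads was lower by a small amount, from 4.81 to 4.37 (-0.44, 0.0880), with 775 input and 7247 IP reads in WT PP and 501 and 3378 in A5-KO PP.

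HOXC4 stood apart by its reads rather than its enrichment. Its 3UTR peak had 7 input and 113 IP reads in WT PP and 295 and 4337 in A5-KO PP, at chr12:54055173-54055322 in the latter. IP reads per input read, with 1 added to each, were 14.2 and 14.7, so both counts were higher together. The deposited enrichment was 5.40 (0.544) and 6.53 (0.0867), and the A5-KO PP value was the highest of its HOX peaks with at least 10 input reads. Per kb and per 1000000, input in HOXC4 peaks went from 0.981 in WT PP to 155 in A5-KO PP, in HOXC5 from 139 to 44.0 and in HOXC6 from 46.7 to 16.3. Peaks of unequal width and libraries of different makeup enter these levels.

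**Figure D4:**
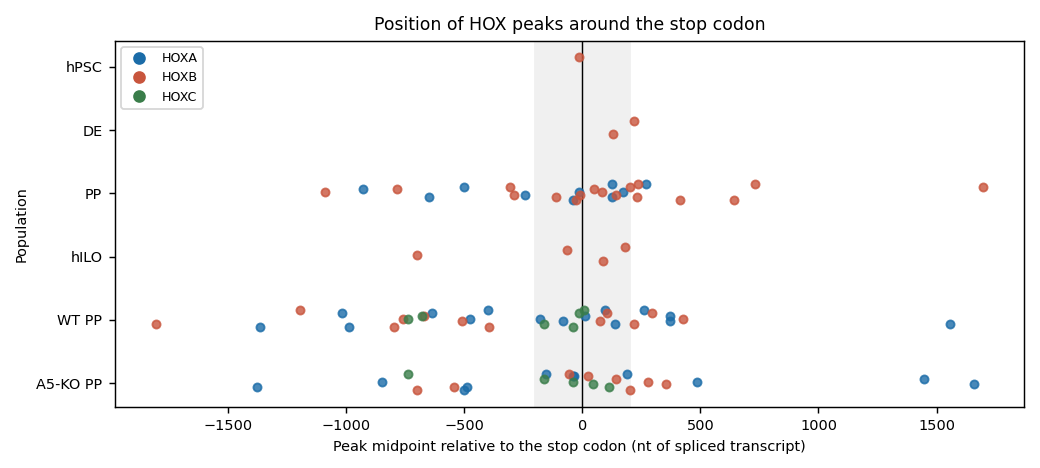
Midpoint of each placed HOX peak relative to the stop codon in nt of spliced transcript, 1 row per population, with the window of 200 nt on either side shaded. Of 91 peaks, 38 lie in the window, and those farther off extend to both sides.

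On the transcripts, HOX peaks gathered around the stop codon. By midpoint on the longest coding isoform, 40 of 88 peaks lay in the CDS (45.5%, 35.5% to 55.8%), 42 in the 3UTR (47.7%, 37.6% to 58.0%) and 6 in the 5UTR, where all peaks had 52.9% in the CDS and 41.1% in the 3UTR. Within 200 nt of the stop codon lay 38 of 91 HOX peaks (41.8%) and 20.7% of all peaks. HOX transcripts are short, and this window made up 17.9% of the bases of the 20 HOX transcripts with a placed peak (median length 2009 nt) and 9.79% of those of all genes with a peak (3256 nt). The share of HOX peaks near the stop codon was thus higher in about the same measure as the window itself. The homeobox, which encodes the DNA-binding homeodomain, was touched by 16 of the 97 peaks, on 10 genes. HOXA2, HOXB3, HOXC5 and HOXC8 had such peaks in both WT PP and A5-KO PP.

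The m6A consensus was denser in HOX peaks than in the remaining exons of the same genes. In PP the ratio of DRACH densities was 1.56 (1.26 to 1.93, counting error only), from 22.1 sites per kb in peaks and 14.1 outside, and in A5-KO PP it was 1.50 (1.20 to 1.87). In WT PP it was 1.10 (0.906 to 1.33), an interval that includes no difference. All genes with peaks gave 1.27 in PP, while WT PP gave 1.20 and A5-KO PP gave 1.22. GGAC gave 2.12 (1.38 to 3.27) in PP, 1.19 (0.785 to 1.79) in WT PP and 1.62 (1.03 to 2.56) in A5-KO PP, against 1.48, 1.44 and 1.42 for all genes. On the opposite strand, which is not that of the transcript, DRACH was sparser in HOX peaks, with ratios of 0.630, 0.641 and 0.665, and also in the peaks of all genes, with 0.824, 0.867 and 0.878. The WT PP peaks were wide, 7927 nt in all against 5292 nt in PP, and included a HOXB4 peak of 2591 nt that rested on 16 input reads. Without it the WT PP ratio was 1.20 (0.976 to 1.47) for DRACH and 1.47 (0.959 to 2.25) for GGAC.

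Partners and regulators of HOX proteins had peaks in each list, also where HOX genes had few. Of 9 TALE cofactors (PBX, MEIS and PKNOX proteins, which bind DNA together with HOX proteins), a peak was held by 5 in hPSC, 8 in DE and 7 in PP, by 6 in hILO, and by 8 in each list of batch 2. The HOX peaks themselves had 110 input reads in all in hPSC and 179 in DE. Of 7 upstream regulators (CDX factors, retinoic acid receptors and the methyltransferase KMT2A), each stage of batch 1 showed 4 with a peak, while WT PP showed 6 and A5-KO PP 7. The shares ran from 55.6% (hPSC) to 88.9% for the cofactors and from 57.1% to 100% for the regulators, where 52.2% to 69.7% of all protein-coding genes had a peak. In hPSC both were below the share of all genes, and nothing particular to these short lists is read from them. RARB, itself a retinoic acid target, had none in hPSC and had peaks in the other 5 lists. Of 5 genes of HOX type outside the clusters, the pancreatic factor PDX1 alone had peaks, in PP (2654 input reads), hILO (4581), WT PP (1255) and A5-KO PP (2494).

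Long noncoding RNAs of the clusters followed only in part. HOXB-AS1 and HOXB-AS3, which share their peaks, were found in hPSC with 437 input and 2713 IP reads and in DE with 1933 and 5232, more than all HOX coding peaks of these lists together. Of 18 such RNAs, PP had a peak on 4, hILO and WT PP on 3 each, and A5-KO PP on 5. In PP 7 of 30 HOX peaks, on HOXA3, HOXA7, HOXB3 and HOXB6, overlapped a peak of an antisense RNA, and in the other lists none did. The counts differed between strands, with 1815 input reads in the HOXB6 3UTR peak and 5 in the HOXB-AS1 and HOXB-AS3 peak against it. In 3 of the 7 overlaps the antisense peak had more, 409 against 76 at HOXA7 and 371 against 10 and against 304 at HOXB3. The authors aligned with a strand setting, and the study's reagent list holds a stranded Illumina kit without saying for which libraries. A mixing of strands in these peaks was not tested.

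Stage markers had peaks where the labels place them, and in neighbouring stages as well. Of 7 pluripotency genes 6 had a peak in hPSC, with SOX2 the exception, and the same number in DE, against 1 to 3 in the later lists. Of 7 endoderm genes all 7 had a peak in DE, 5 in each list of batch 2, 3 in PP and in hILO, and 2 in hPSC. Of 7 progenitor genes PP and hILO had 6 each and WT PP and A5-KO PP 7 each, against 2 in hPSC and in DE. Of 7 islet genes hILO had 7 and the other lists 1 to 3.

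Markers of other tissues were found beside the HOX peaks in several lists. Of 3 intestinal genes, CDX2 and VIL1 had peaks in the 4 lists from PP onward and none in hPSC or DE, whereas LGR5 had peaks in DE (235 input reads) and A5-KO PP (15) only. Input reads for CDX2 numbered 7644 in hILO and 259 in PP, while WT PP had 413 and A5-KO PP 449. The hILO list, which held HOXB13, thus had the most, and it also had the most input reads over all peaks. Of 3 liver genes, AFP, ALB and TTR, all had a peak in hILO, AFP and TTR in WT PP and A5-KO PP, and none in hPSC, DE or PP. Of 5 mesoderm genes none had a peak in hPSC, PP or hILO, while DE had 2 (TBXT and HAND1), WT PP 3, among them TBX6 with 4804 input reads, and A5-KO PP 2. Input reads were 14 (TBXT) and 25 (HAND1) in DE, and 7 (MEOX1) and 121 (HAND1) in A5-KO PP. Of 5 neural genes at most 2 had a peak in any list. The part of such cells in the HOX peaks was not tested.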

How the data were processed

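For each population the authors called peaks with exomePeak2, on its IP and input libraries together, after trimming with fastp and alignment with HISAT2 to the GRCh38 genome. The deposited values per peak were read counts pooled over libraries (sum or mean is not stated), a log2 enrichment, and p-values before and after adjustment, both from exomePeak2. The study's methods name IP/input of at least 1.5 and p below 1e-05, and the deposited lists were cut at a log2 of 0.585 and an adjusted p of 0.05. Input reads in peaks summed to 6987612 in PP and up to 28463998 in hILO.

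Peak spans were reduced to the exons of the named genes (GENCODE 44, GRCh38, 1-based coordinates). The counting error is that of the log2 ratio with 0.5 added to each count. If the pooled counts are means, it is overstated, and PCR copies make it too small. Shared peaks were paired by the largest overlap. No test was run, since the pooled counts were used and counts per library were not used here. The code was checked on simulated overlaps, motifs and counts. Peaks given in full are, in each list, the HOX peak with most input reads and that with the highest enrichment among those with at least 10, and the 3 largest rises and falls from WT PP to A5-KO PP at the same minimum, where only 2 rose. Other peaks are named by reads or recurrence, chosen after their values were seen. Members and gene lists were chosen with earlier results of these data known. Alternatives covered thresholds, gene assignment, overlap, isoform, motif and enrichment scale. Values of some genes are not reported here. Python 3 with pandas and pysam was used.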

Additional observations from a re-analysis of the deposited data

How the results depend on the processing

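No paired analysis was possible because the values used here are pooled, with 1 list per population and no replicate number in its columns. The labels number 2 libraries per group, and with values per library a block or leaving out a replicate could be run. Of 137 values recomputed under an alternative, 92 stayed within their limits (counts within 1.5 times, other values within their counting interval), 43 did not and 2 changed sign. Counting genes on whose own exons a peak lies and leaving out the widest WT PP peak were chosen after seeing the data. Thresholds remove peaks by construction, and for the other changes the cause was not tested.

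HOX genes in hPSC (2) fell to 1 at IP/input of at least 3, to 1 at p below 1e-05 and to 0 at p below 1e-10, and its 2 peaks likewise to 1, 1 and 0. The 4 genes of DE fell to 1 at either p threshold, at 10 input reads and with a single named gene, and to 2 by exon overlap or by own exons, and its 2 peaks to 1 under the first 4 of these. In PP a single named gene left 8 of 13 genes and 15 of 30 peaks, IP/input of at least 3 left 13 peaks, p below 1e-05 left 18 and p below 1e-10 left 11. In hILO IP/input of at least 3 left 2 of 4 peaks. In WT PP p below 1e-10 left 8 of 17 genes and 7 of 34 peaks, p below 1e-05 left 12 peaks, and a single named gene 7 genes and 14 peaks. In A5-KO PP p below 1e-10 left 4 of 15 genes and 3 of 25 peaks, p below 1e-05 left 12 peaks, 10 input reads left 11, and a single named gene 5 genes and 9 peaks.

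Counting each region a peak touches gave 71.0% in the CDS in WT PP and 69.6% in the 3UTR in A5-KO PP. The DRACH ratio of 1.56 in PP became 2.12 for GGAC, and on the opposite strand the ratios became 0.630 (PP), 0.641 (WT PP) and 0.665 (A5-KO PP). Reciprocal overlap lowered the hILO share also in PP to 0. With 1 offset per list the median log2 enrichment became 2.04 for PP, 4.19 for WT PP and 6.26 for A5-KO PP. The median difference between A5-KO PP and WT PP turned from -0.33 to 0.54 with 1 offset per list and to 0.09 with any overlap, and stayed below 0 with 10 or 50 input reads in both lists. Its direction is therefore not settled.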
